A study of Rattus norvegicus with 60 samples.

Results

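The striatum of rats that had received no drug was compared with the cortex and the hippocampus of the same treatment groups. RNA levels were read on 10 striatal arrays, which were set against 10 cortical and 10 hippocampal arrays, out of 60 arrays in the whole series. The striatal arrays were those labelled striatum and given as vehicle, and the other 30 arrays of the series came from rats given lithium chloride or lamotrigine. Rats of the strain labelled SD were treated for 21 days. In each region 5 arrays were of rats injected under the skin with the vehicle of lamotrigine, here the injection vehicle, and 5 were of rats fed plain chow, the control of lithium in chow, here the chow vehicle. Regions were microdissected and snap-frozen, and each array held 1 sample. By the numbers in the sample descriptions the 30 vehicle arrays came from 12 animals, so the regions of most animals were measured side by side. The drug arrays came from 12 further animals and served as a second set in which the same differences were measured.

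The striatum is the main input nucleus of the basal ganglia and receives glutamate from cortex and thalamus and dopamine from the midbrain. Most of its neurons are medium spiny neurons, which release GABA. Those of the direct pathway carry the D1 dopamine receptor, substance P and dynorphin, and those of the indirect pathway carry the D2 dopamine receptor, the adenosine receptor Adora2a and enkephalin. The principal neurons of cortex and hippocampus release glutamate and arise from another part of the embryonic forebrain, the pallium.

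Levels below are log2 intensities of 1 probe set per gene, the one with the highest mean, and differences are striatum minus the named region, also on the log2 scale, with the SE of the fit. Such levels do not rank different genes by abundance. No detection calls were used, so a dim level does not show whether any RNA was present, and a difference from a dim level is one of measured intensities and not of RNA amounts. This holds for many of the largest differences, among them those of Adora2a, Drd2, C1ql3, Bhlhe22, Kcnj6 and Bdnf, where a region had a median level under the median intensity of its arrays (93.5 to 101 on the linear scale). A gene was called higher or lower in the striatum when it differed in the same direction from cortex and from hippocampus, each with an adjusted p under 0.05 in limma over 31042 probe sets. Of 14217 genes, 2619 (18.4%) were higher than in both other regions and 2568 (18.1%) were lower. A list with shares near these does not differ from genes in general. A difference of at least 1 log2 unit, a factor of 2, in both comparisons was seen for 232 higher genes (1.63%) and 289 lower genes (2.03%). In 647 genes (4.55%) every striatal array lay above every other vehicle array, and in 899 (6.32%) every one lay below. Counted over probe sets, 16.6% were higher and 15.5% lower than in both, 52.4% differed from cortex, 47.9% from hippocampus and 53.8% from the mean of both, and against that mean 31.7% of genes were higher and 28.1% lower. Since whole tissue was measured, more cells of a type and more RNA per cell cannot be told apart.

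The labels fitted the arrays. The mean level of 17 genes that mark medium spiny neurons was 11.11, 11.56 and 11.63 (lowest, median and highest array) in striatum, 8.61, 8.71 and 8.80 in cortex and 8.41, 8.48 and 8.54 in hippocampus, with no overlap. The mean of 22 genes of cortical and hippocampal excitatory neurons was 7.85, 8.14 and 8.55 in striatum, 9.33, 9.40 and 9.52 in cortex and 9.23, 9.34 and 9.38 in hippocampus. In 29 of 30 arrays the correlation with each array of the same region exceeded that with any array of another region. The exception was chow vehicle hippocampus 1. Injection vehicle striata 1, 4 and 5 were the striatal arrays with the highest excitatory neuron means (8.55, 8.53 and 8.46), and injection vehicle striatum 4 had the lowest medium spiny neuron mean. Injection vehicle striatum 2 stood apart in genes of the choroid plexus (9.35) and of the meninges (7.30). Without injection vehicle striata 1, 4 and 5, 2364 genes were higher and 2487 lower. Without the 5 vehicle arrays with high choroid plexus levels, over the 3 regions, the numbers were 2401 and 2443. Most of the same genes were called, 2237 of the 2619 and 2400 of the 2568 without these 3 striatal arrays.

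**Figure D1:**
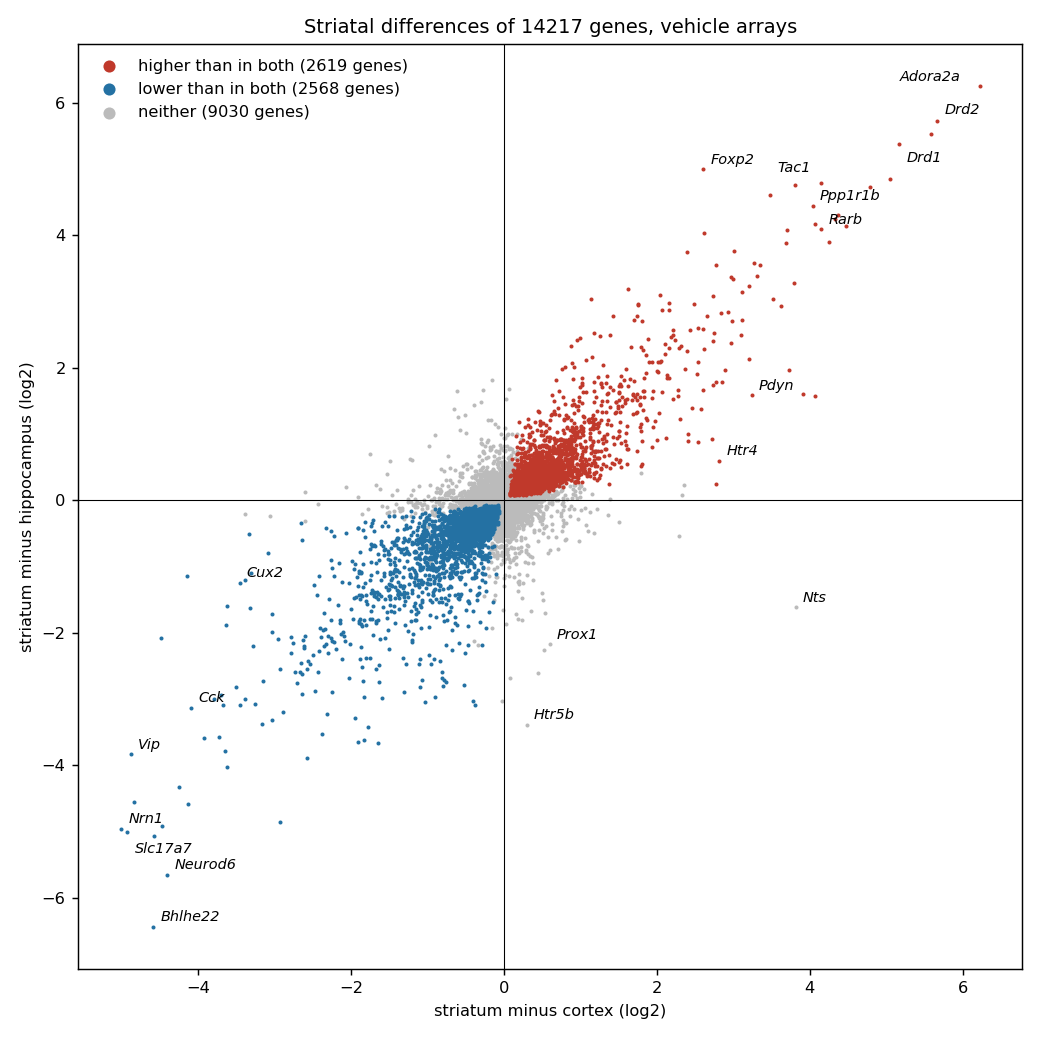
Each point is a gene, with its striatum minus cortex difference on the x axis and its striatum minus hippocampus difference on the y axis (log2, 10 vehicle arrays per region). The 2619 genes higher than in both regions lie in the upper right with Adora2a, Drd2 and Drd1 at the far end, the 2568 lower than in both lie in the lower left with Nrn1, Slc17a7 and Bhlhe22, and Nts is higher than in cortex but lower than in hippocampus.

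Adora2a and Drd2, receptors of the indirect pathway, headed the genes higher in the striatum. Adora2a, an adenosine receptor that raises cyclic AMP, had levels of 11.33, 11.63 and 11.75 in striatum (lowest, median and highest of 10 arrays, as for each gene below), 5.01, 5.41 and 5.66 in cortex and 4.98, 5.36 and 5.61 in hippocampus. The striatal arrays were close to one another, and the lowest of them lay more than 5 log2 units above the highest of the others. The difference was 6.22 ± 0.07 from cortex (adjusted p = 3.71e-36) and 6.25 ± 0.07 from hippocampus (adjusted p = 3.21e-36), and no gene had a larger measured difference from both. Drd2, the D2 receptor, had levels of 10.89, 11.38 and 11.44 in striatum, 5.08, 5.71 and 6.06 in cortex and 5.40, 5.54 and 6.08 in hippocampus. Its values outside the striatum were low and alike, and it differed by 5.67 ± 0.10 from cortex and 5.72 ± 0.10 from hippocampus. Gpr6, an orphan receptor that raises cyclic AMP without a ligand, differed by 4.37 ± 0.08 and 4.30 ± 0.08, with levels of 10.16 to 10.70 in striatum, 5.82 to 6.29 in cortex and 5.86 to 6.73 in hippocampus.

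Penk, the enkephalin precursor, was bright in every region. Its levels were 13.42, 13.54 and 13.65 in striatum, 9.27, 9.82 and 10.04 in cortex and 8.50, 8.81 and 9.13 in hippocampus. All 10 striatal arrays lay close together, and the gene differed by 3.81 ± 0.08 from cortex and by 4.76 ± 0.08 from hippocampus, since cortex exceeded hippocampus by 0.95. All 4 measured genes of the indirect pathway list were higher, with no overlap of the arrays. Their median difference from the mean of the other regions was 5.02, against 0.03 over all genes. Over all genes 18.4% were higher, and 4.55% were higher with no overlap.

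Of the 9 measured genes of the direct pathway list, 7 were higher and 2 were lower, with a median difference of 2.33. Over all genes 18.4% were higher and 18.1% lower. Drd1, the D1 receptor, had levels of 11.86, 12.02 and 12.15 in striatum, 5.68, 6.94 and 7.32 in cortex and 5.92, 6.68 and 7.17 in hippocampus. No arrays overlapped, and the difference was 5.17 ± 0.14 from cortex (adjusted p = 9.51e-25) and 5.37 ± 0.14 from hippocampus (adjusted p = 2.26e-25). Tac1, the precursor of substance P, had levels of 11.96, 12.33 and 12.51 in striatum, 7.56, 8.26 and 8.61 in cortex and 7.14, 7.51 and 8.03 in hippocampus, and differed by 4.15 ± 0.12 and 4.79 ± 0.12. Slc35d3, a relative of nucleotide sugar transporters that in mice is needed for D1 receptors to reach the cell surface, differed by 5.04 ± 0.23 from cortex and 4.84 ± 0.23 from hippocampus.

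Pdyn, which encodes the dynorphin precursor, was the direct pathway peptide with the smaller difference. It had levels of 11.11, 11.65 and 11.90 in striatum, 8.13, 8.36 and 8.64 in cortex and 9.29, 10.06 and 10.60 in hippocampus, where granule cells are known to make it. The hippocampal arrays lay between the others without reaching the striatal ones, so the gene differed by 3.24 ± 0.13 from cortex (a factor of 9.46) but by 1.58 ± 0.13 from hippocampus (a factor of 2.99). The muscarinic receptor Chrm4 (1.55 ± 0.06 against the mean of the other regions) and the transcription factors Isl1 (2.32 ± 0.07) and Ebf1 (2.33 ± 0.07) were also higher, although another probe set of Isl1 was in neither class. The listed members that were lower were Eya1, a transcriptional coactivator (-0.98 ± 0.07), and Sfxn1, a serine carrier of mitochondria (-0.39 ± 0.03).

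**Figure D2:**
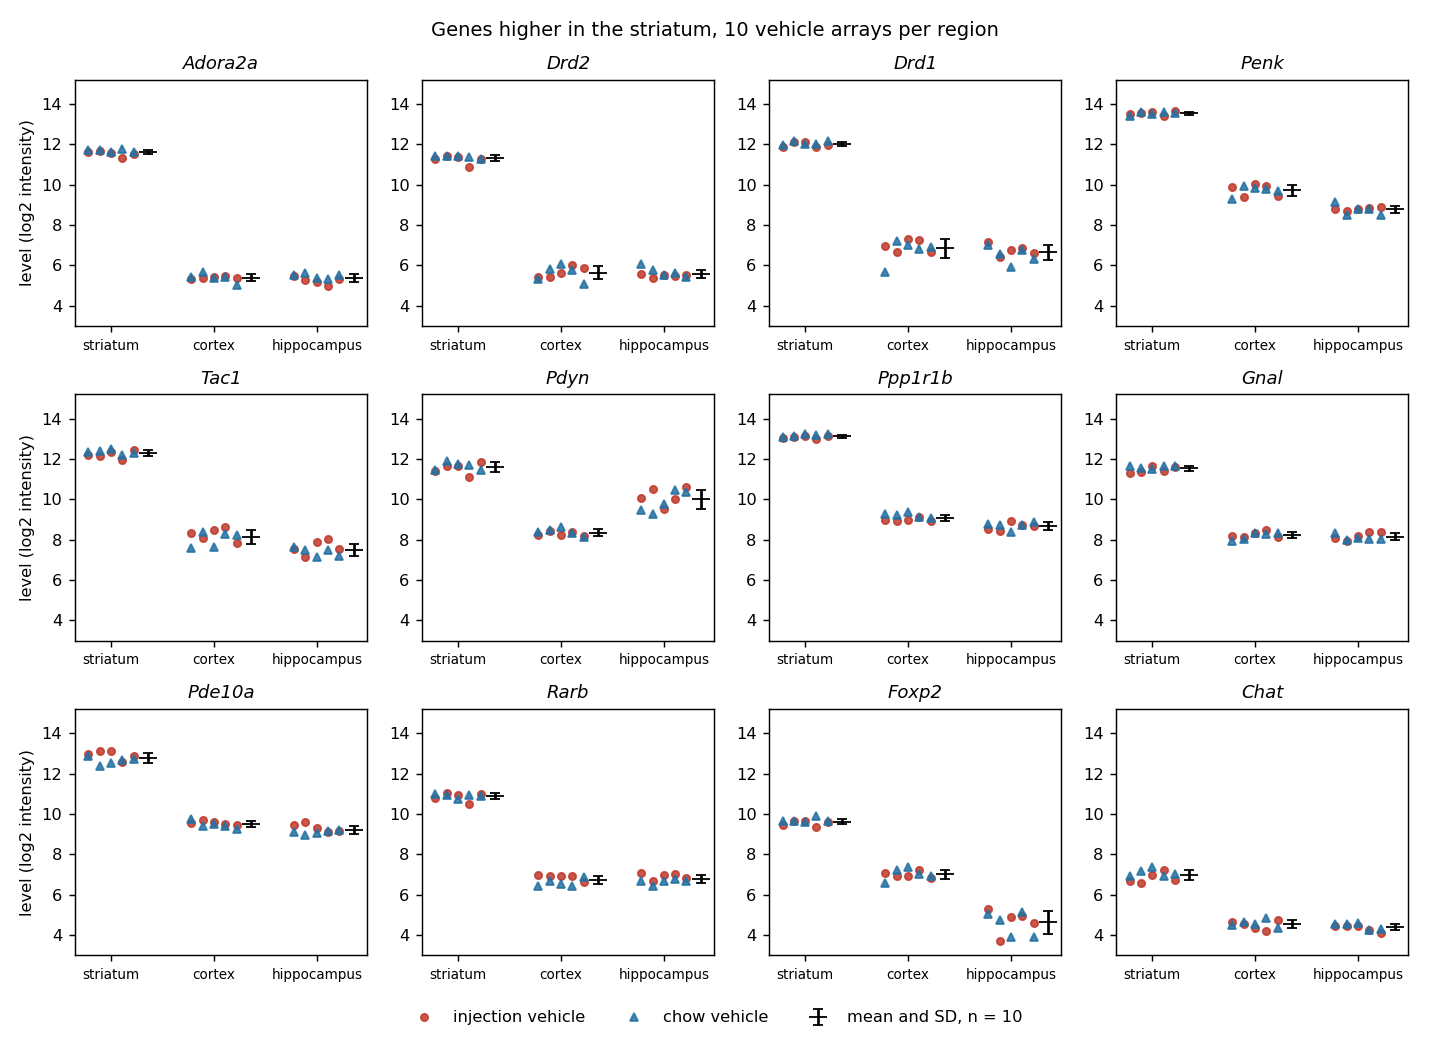
Each panel plots 1 gene in the vehicle arrays of striatum, cortex and hippocampus (y axis, log2 intensity), with a point per array, circles for injection vehicle and triangles for chow vehicle, and the mean and SD of 10 arrays beside them. All 10 striatal arrays lie above the other 20 in each panel, by least for Pdyn, whose hippocampal arrays reach 10.60.

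The promoters of Tac1, Gpr6 and Rarb are shown because these genes were among the 15 with the largest differences and hold a known response element letter for letter. The cyclic AMP response element was searched as TGACGTCA and as the shorter TGCGTCA, and a retinoic acid response element as GTTCA repeated with any 6 bases between, on both strands of the 300 bases from 250 before to 50 after the gene start in RefSeq (GRCr8). None of these motifs contains another. Capitals mark the motif. Positions are chr4:36645333-36645441 on the + strand for Tac1, chr20:46075277-46075404 on the - strand for Gpr6 and chr15:11336410-11336439 on the + strand for Rarb.
Tac1: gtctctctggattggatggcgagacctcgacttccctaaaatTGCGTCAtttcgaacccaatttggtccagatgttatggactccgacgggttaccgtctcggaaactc
Gpr6: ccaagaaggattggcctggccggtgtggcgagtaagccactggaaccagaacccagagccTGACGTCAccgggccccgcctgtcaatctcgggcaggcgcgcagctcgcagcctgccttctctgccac
Rarb: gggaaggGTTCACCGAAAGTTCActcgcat
The motif began 208 bases before the gene start in Tac1, 93 bases before it in Gpr6 and 26 bases after it in Rarb. TGACGTCA was found in 1.91% of 27457 rat promoters, TGCGTCA in 2.09% and the GTTCA repeat in 0.401%. Promoter sequences were matched for 179 of the 232 genes higher by 1 log2 unit or more, of which 2 (1.12%), 5 (2.79%) and 1 (0.559%) held them, and for 224 of the 289 lower genes, of which 5 (2.23%), 2 (0.893%) and 1 (0.446%) did. These are matches of letters only.

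Inside the medium spiny neuron, dopamine and adenosine receptors act through cyclic AMP and protein kinase A. All 17 measured genes of the general medium spiny neuron list were higher in the striatum, with no overlap of the arrays and a median difference of 3.17. Over all genes 18.4% were higher, and 4.55% were higher with no overlap. Ppp1r1b, which encodes DARPP-32, an inhibitor of protein phosphatase 1 once protein kinase A has phosphorylated it, had levels of 12.97, 13.13 and 13.26 in striatum, 8.91, 9.08 and 9.35 in cortex and 8.39, 8.72 and 8.93 in hippocampus. It was bright everywhere and brightest in striatum, by 4.04 ± 0.06 from cortex (a factor of 16.5) and 4.45 ± 0.06 from hippocampus (a factor of 21.8). Rgs9, which speeds the shut-off of G proteins, had levels of 11.07, 11.35 and 11.47 in striatum, 6.88, 7.00 and 7.19 in cortex and 6.87, 7.07 and 7.30 in hippocampus and differed by 4.33 ± 0.05 and 4.25 ± 0.05. Rasgrp2, an exchange factor for Rap, and Scn4b, a beta subunit of sodium channels, differed from the mean of the other regions by 4.12 ± 0.08 and 4.04 ± 0.10. The least of the 17 differences was that of the inositol trisphosphate receptor Itpr1 (0.75 ± 0.04).

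Gnal and Gnas, alpha subunits of the same signalling step, differed in opposite directions. Gnal, the stimulatory alpha subunit that couples dopamine D1 and adenosine receptors to adenylyl cyclase in the striatum, had levels of 11.32, 11.59 and 11.66 in striatum, 7.95, 8.23 and 8.46 in cortex and 7.93, 8.08 and 8.39 in hippocampus. Its difference was 3.31 ± 0.07 from cortex and 3.39 ± 0.07 from hippocampus, with striatal arrays far apart from the rest. Gnas, the stimulatory alpha subunit of most other tissues, had levels of 11.99, 12.18 and 12.25 in striatum, 13.11, 13.18 and 13.30 in cortex and 13.16, 13.29 and 13.41 in hippocampus. All striatal arrays lay below all others, and the difference was -1.04 ± 0.03 from cortex (adjusted p = 1.31e-22) and -1.13 ± 0.03 from hippocampus (adjusted p = 9.97e-24). Of its 2 further probe sets 1 was also lower and 1 was in neither class.

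Among gamma subunits, Gng7, a partner of the Gnal product, differed by 3.62 ± 0.12 from cortex and 2.93 ± 0.12 from hippocampus, while Gng2 differed by -1.76 ± 0.11 and -2.37 ± 0.11. Gng7 had levels of 10.04 to 11.32 in striatum, 6.91 to 7.61 in cortex and 7.79 to 8.31 in hippocampus, and Gng2 of 7.18 to 8.61 in striatum, 9.19 to 9.68 in cortex and 9.73 to 10.38 in hippocampus. Neither gene overlapped between striatum and the other regions. Over the list of 23 G protein subunits 10 were higher and 7 lower, where 18.4% and 18.1% of all genes were. The median was 0.08 against 0.03 over all genes, and 6 of each remained among injection vehicle arrays alone. Apart from Gnal and Gng7 the higher members differed by 1.00 (Gnb5) or less.

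Adenylyl cyclases and phosphodiesterases make and break down cyclic nucleotides. Of 23 such genes 11 were higher and 6 lower, where 18.4% and 18.1% of all genes were. Adcy5, the main adenylyl cyclase of the striatum, had levels of 10.09 to 10.96 in striatum, 7.59 to 7.91 in cortex and 7.19 to 7.69 in hippocampus and differed by 3.17 ± 0.07 from their mean, although another probe set of it was in neither class. Adcy8 (-2.14 ± 0.12), which calcium activates, and Adcy2 (-1.41 ± 0.04) were lower. Pde10a, a phosphodiesterase of medium spiny neurons, had levels of 12.40, 12.79 and 13.10 in striatum, 9.27, 9.50 and 9.74 in cortex and 8.94, 9.17 and 9.60 in hippocampus, a difference of 3.27 ± 0.07 and 3.57 ± 0.07. Its close functional relatives differed by isoform. Pde1b was higher by 3.17 ± 0.04, Pde7b by 1.43 ± 0.09 and Pde8b by 0.98 ± 0.10, whereas Pde1a was lower (-2.30 ± 0.12), with levels of 4.81 to 6.56 in striatum, 7.35 to 8.40 in cortex and 7.02 to 8.49 in hippocampus.

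Of 22 genes of protein kinase A and its substrates, 10 were higher and 6 lower, where 18.4% and 18.1% of all genes were. The regulatory subunit Prkar2b was higher (1.37 ± 0.04) and the regulatory subunit Prkar1b lower (-0.87 ± 0.03), as was Pkib, an inhibitor of the kinase (-1.79 ± 0.10). The substrates Arpp19 (1.69 ± 0.06) and Arpp21 (2.26 ± 0.08) and the anchoring protein Akap5 (1.41 ± 0.14) were higher, but of the other probe sets of Arpp21 1 was higher and 1 lower. Among 16 regulators of G protein signalling 4 were higher, Rgs9, Rgs8 (1.62 ± 0.08), Rgs2 (1.52 ± 0.07) and Rgs7bp, which anchors Rgs9 at membranes (1.16 ± 0.08), and 4 were lower, with Rgs6 first (-0.94 ± 0.07). Rgs4 was higher than in hippocampus (1.43 ± 0.13) and lower than in cortex (-0.39 ± 0.13).

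**Figure D3:**
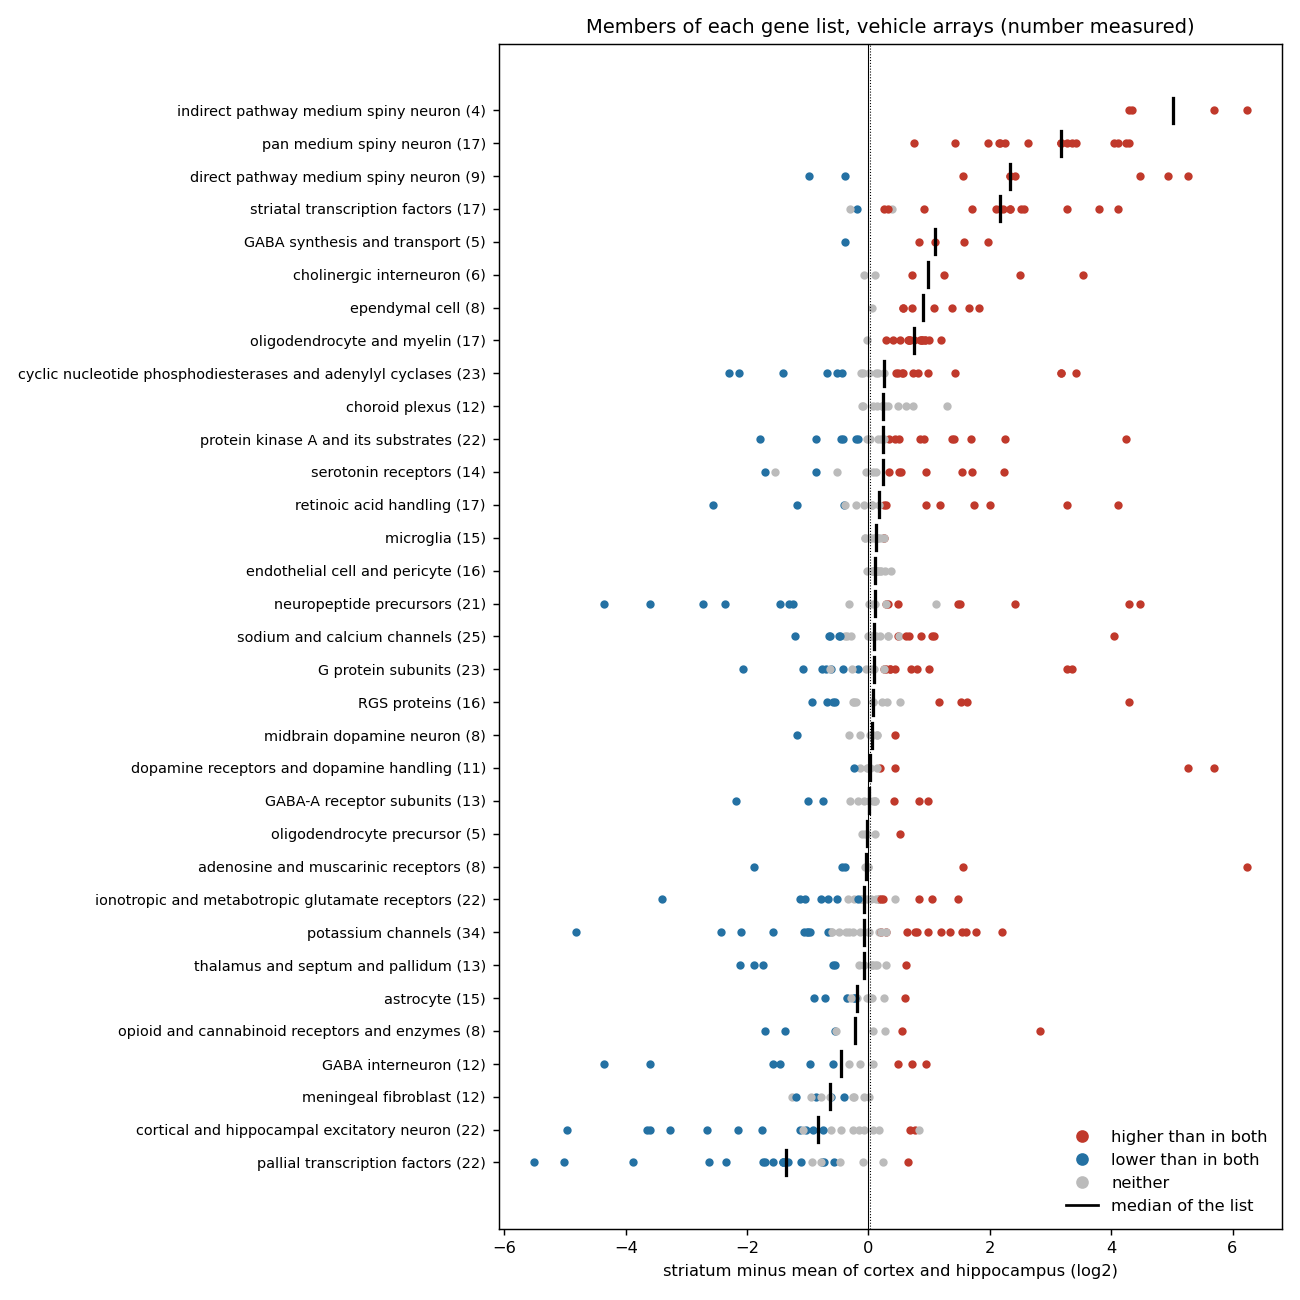
Each row is a gene list with the number of its measured members in brackets, and each point is a gene at its striatum minus mean of cortex and hippocampus difference (x axis, log2, 10 vehicle arrays per region), coloured by its class, with the list's median as a bar and that of all genes as a dotted line. The medians of the indirect pathway (5.02), general medium spiny neuron (3.17) and direct pathway (2.33) lists are the highest and that of pallial transcription factors (-1.37) the lowest, while receptor and channel lists hold members on both sides of 0.

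Receptors for other transmitters differed in direction by subtype, beside 18.4% of all genes higher and 18.1% lower. Of 11 genes of dopamine receptors and handling, Drd1 and Drd2 stood far above the rest, the D3 receptor Drd3 was higher by 0.19 ± 0.06 at levels of 3.43 to 4.08 in striatum, 3.24 to 3.64 in cortex and 3.28 to 3.74 in hippocampus, which overlapped, and Ddc, which makes dopamine from DOPA, was higher by 0.43 ± 0.09. Drd4 and Drd5 were in neither class. Tyrosine hydroxylase and the dopamine transporter, which mark the cell bodies of dopamine neurons in the midbrain, overlapped between regions, with 4.99 to 5.31 in striatum, 5.07 to 5.67 in cortex and 5.01 to 5.49 in hippocampus for tyrosine hydroxylase (Th) and 5.09 to 5.34 in striatum, 4.86 to 5.24 in cortex and 4.96 to 5.36 in hippocampus for the dopamine transporter (Slc6a3). Both were in neither class. In all 4 of the 11 dopamine genes were higher and 1 lower, and of 8 genes of midbrain dopamine neurons 1 was higher (Ddc) and 1 lower (Aldh1a1, -1.17 ± 0.10). In the drug arrays 2 of the dopamine genes were higher, with Drd3 and Ddc in neither class, and both calls were also lost among injection vehicle arrays alone and with array spread as a covariate.

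Oprk1, the kappa opioid receptor at which dynorphin acts, had levels of 7.18, 7.43 and 8.15 in striatum, 4.26, 4.77 and 5.17 in cortex and 4.46, 4.81 and 4.92 in hippocampus. Its striatal arrays lay at least 2 log2 units above the others, and it differed by 2.84 ± 0.11 and 2.82 ± 0.11. In contrast the mu receptor Oprm1 was in neither class (0.37 ± 0.08 from cortex, 0.19 ± 0.08 from hippocampus, adjusted p = 0.0632) at levels of 5.29 to 5.70 in striatum, and Oprl1, the nociceptin receptor, was lower (-1.73 ± 0.09 from cortex, -1.67 ± 0.09 from hippocampus). The cannabinoid receptor Cnr1 was higher by 0.70 ± 0.06 from cortex and 0.40 ± 0.06 from hippocampus, and was in neither class in the drug arrays. Of the 8 measured genes of opioid and cannabinoid receptors and enzymes 2 were higher and 3 lower, and of 8 adenosine and muscarinic receptors 2 were higher and 3 lower. The shares over all genes were 18.4% and 18.1%.

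Of 14 serotonin receptors 7 were higher and 2 lower, where 18.4% and 18.1% of all genes were. In the drug arrays 4 were higher, without Htr1b, Htr1f and Htr4, and 1 of the 9 called genes was bright enough to be tested when dim probe sets were left out. Htr1d, an inhibitory receptor, had levels of 6.92, 7.26 and 7.43 in striatum, 4.95, 5.11 and 5.34 in cortex and 4.56, 4.91 and 5.14 in hippocampus and differed by 2.10 ± 0.07 and 2.36 ± 0.07, with no overlap. Htr2c, which raises calcium, was higher by 2.13 ± 0.15 from cortex and 0.94 ± 0.15 from hippocampus, and its striatal and hippocampal arrays overlapped. Htr4, which raises cyclic AMP, had levels of 6.51, 7.29 and 7.51 in striatum, 3.93, 4.41 and 4.72 in cortex and 6.12, 6.50 and 7.23 in hippocampus, a difference of 2.82 ± 0.14 from cortex and of 0.59 ± 0.14 from hippocampus, with which it overlapped, and was in neither class in the drug arrays. Htr1a, an inhibitory receptor of cortical and hippocampal neurons, was lower (-1.71 ± 0.07). Htr5b was a hippocampal gene here, with levels of 3.66 to 4.09 in striatum, 3.43 to 3.79 in cortex and 6.83 to 7.67 in hippocampus. Htr2a was lower than in cortex (-1.75 ± 0.13) and higher than in hippocampus (0.70 ± 0.13).

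Of 22 glutamate receptor genes 6 were higher and 7 lower, with a median of -0.07, and 3 of the 6 higher calls remained among chow vehicle arrays alone. The presynaptic receptors Grm2 and Grm4 went in opposite directions. Grm2 had levels of 4.70, 5.46 and 5.88 in striatum, 8.29, 9.09 and 9.52 in cortex and 7.20, 8.42 and 8.64 in hippocampus, and differed by -3.79 ± 0.16 and -3.00 ± 0.16, with all striatal arrays below all others. Grm4 differed by 1.18 ± 0.13 and 1.78 ± 0.13. Of 13 measured GABA-A receptor subunits 3 were higher and 3 lower. Among all genes 18.4% were higher and 18.1% lower, so a split list of receptors is not by itself a result. Among them, Gabra4 (0.98 ± 0.07) and Gabrd (0.83 ± 0.04), subunits of receptors outside synapses, were higher, and Gabra5, a subunit abundant in hippocampus, was lower (-1.63 ± 0.08 from cortex, -2.74 ± 0.08 from hippocampus).

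Channels were split as well, as were genes in general (18.4% higher and 18.1% lower). Of 34 potassium channel genes 12 were higher and 9 lower. Kcnj6, an inward rectifier that G proteins open, had levels of 4.28, 4.78 and 6.15 in striatum, 9.37, 9.59 and 9.80 in cortex and 9.68, 10.02 and 10.44 in hippocampus. It was among the 15 lowest genes of all, by -4.58 ± 0.17 and -5.06 ± 0.17, and its partners Kcnj3 (-2.10 ± 0.13) and Kcnj9 (-1.58 ± 0.08) were also lower, although another probe set of Kcnj3 was higher. The leak channel Kcnk2 (2.21 ± 0.07), the A-type channel Kcna4 (1.54 ± 0.06), the beta subunit Kcnab1 (1.77 ± 0.04) and the sodium-activated Kcnt1 (1.60 ± 0.07) were higher. Kcnc2, a channel of fast-spiking neurons, was lower (-2.42 ± 0.11) by this and 4 other probe sets and higher by 1. Of 25 sodium and calcium channel genes 7 were higher and 5 lower, led by Scn4b, whose levels were at least 12.55 in striatum, 8.73 to 9.86 in cortex and 7.84 to 8.70 in hippocampus, and by the T-type calcium channel Cacna1g (-1.21 ± 0.07).

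Most transcription factors of the striatal list were higher. Of 17 measured factors of the striatal list 14 were higher and 1 lower, with a median of 2.16. Over all genes 18.4% were higher and 18.1% lower. Foxp2, a forkhead factor of medium spiny neurons and of deep cortical layers, had levels of 9.35, 9.64 and 9.87 in striatum, 6.57, 7.00 and 7.35 in cortex and 3.71, 4.83 and 5.31 in hippocampus. The regions formed 3 separate bands, and the difference was 2.61 ± 0.15 from cortex and 4.99 ± 0.15 from hippocampus. The homeobox factors Dlx5 (2.57 ± 0.07), Meis1 (2.52 ± 0.10) and Meis2 (2.10 ± 0.06), the forkhead factor Foxp1 (2.16 ± 0.06) and the zinc finger factors Zfp503 (2.22 ± 0.10) and Bcl11b (1.70 ± 0.07) were higher too. Bcl11b differed by 2.41 ± 0.09 from cortex and by 1.00 ± 0.09 from hippocampus, whose own neurons are known to express it. Foxp4 was the lower member (-0.19 ± 0.06), and it passed by little, with adjusted p = 0.0461 against hippocampus. Dach1, a transcriptional cofactor that was in no list, was the gene with the third largest difference, at levels of 10.22, 10.31 and 10.50 in striatum, 4.34, 4.78 and 5.09 in cortex and 4.33, 4.74 and 5.31 in hippocampus (5.59 ± 0.10 and 5.53 ± 0.10).

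Retinoic acid, made from vitamin A, acts through nuclear receptors and is removed by CYP26 enzymes. Of 17 measured genes of its handling 8 were higher and 3 lower, with a median of 0.17. Over all genes 18.4% were higher and 18.1% lower. Rarb, a retinoic acid receptor, had levels of 10.51, 10.94 and 11.03 in striatum, 6.41, 6.77 and 6.95 in cortex and 6.41, 6.75 and 7.05 in hippocampus. All striatal arrays were more than 3 log2 units above the others, with differences of 4.15 ± 0.08 (adjusted p = 1.09e-29) and 4.09 ± 0.08 (adjusted p = 1.54e-29). Its partner receptor Rxrg (3.27 ± 0.09), the carriers Rbp4 (2.01 ± 0.08) and Crabp1 (1.74 ± 0.10) and the retinol dehydrogenase Rdh10 (1.18 ± 0.05) were higher, while 1 further probe set of Rdh10 was in neither class. The degrading enzyme Cyp26b1 was lower, with levels of 5.57, 6.16 and 6.92 in striatum, 8.42, 8.84 and 9.12 in cortex and 8.24, 8.74 and 8.92 in hippocampus (-2.65 ± 0.12 and -2.46 ± 0.12), as were the retinal dehydrogenases Aldh1a1 (-1.17 ± 0.10) and Aldh1a2 (-0.40 ± 0.11). Aldh1a2 is also a gene of the meninges, and its call was lost without the 5 choroid plexus-high arrays. Rara, Rarg and Cyp26a1 were in neither class.

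The genes lower in the striatum were led by those of glutamatergic principal neurons. Slc17a7, the vesicular glutamate transporter VGLUT1, had levels of 5.15, 6.56 and 8.98 in striatum, 11.57, 11.74 and 11.83 in cortex and 11.51, 11.76 and 12.10 in hippocampus. Cortex and hippocampus were narrow and alike, while the striatal arrays were spread over more than 3 log2 units, the highest being injection vehicle striata 1 and 4. The differences were -4.93 ± 0.32 from cortex (adjusted p = 8.55e-15) and -5.00 ± 0.32 from hippocampus (adjusted p = 6.31e-15). Nrn1, which encodes neuritin, a promoter of neurite growth, had levels of 5.32, 6.17 and 8.42 in striatum, 11.31, 11.49 and 11.55 in cortex and 11.17, 11.44 and 11.57 in hippocampus, and the same pair of striatal arrays was the highest. It differed by -5.01 ± 0.22 and -4.96 ± 0.22, the lower gene with the largest smaller difference.

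The spread in these genes went with the excitatory neuron means of injection vehicle striata 1, 4 and 5. Slc17a7 and Cck are members of the excitatory neuron list, so for them this follows in part from the list itself. The part of neighbouring tissue in the spread was not tested. In Slc17a7, Nrn1, Bhlhe22, Neurod6, Kcnj6, Bdnf, Cck and Vip every striatal array was still below every cortical and hippocampal array.

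Of 22 measured pallial transcription factors 16 were lower and 1 higher, with a median of -1.37. Over all genes 18.1% were lower and 18.4% higher. Bhlhe22 had levels of 4.60, 4.90 and 6.73 in striatum, 9.46, 9.78 and 10.07 in cortex and 11.38, 11.62 and 11.87 in hippocampus. It was lowest in striatum, intermediate in cortex and highest in hippocampus, with no overlap, and differed by -4.59 ± 0.16 from cortex and by -6.43 ± 0.16 from hippocampus. Neurod6 followed the same order, with levels of 4.59, 5.56 and 7.28 in striatum, 9.88, 10.09 and 10.32 in cortex and 11.16, 11.35 and 11.64 in hippocampus, and Neurod1 (-3.89 ± 0.11), Fezf2 of deep cortical layers (-2.63 ± 0.09) and Neurod2 (-1.74 ± 0.10) were lower. Cux2, a factor of upper cortical layers, differed by -3.46 ± 0.15 from cortex and -1.24 ± 0.15 from hippocampus. Its relative Cux1 was the higher member (0.65 ± 0.05), with 1 further probe set in neither class. Prox1, which marks granule cells of the dentate gyrus, was lower than in hippocampus (-2.17 ± 0.10) and higher than in cortex (0.60 ± 0.10).

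The excitatory neuron list itself was not uniform. Of its 22 measured genes 11 were lower, 2 were higher and 9 were in neither class, with a median of -0.83. Over all genes 18.1% were lower and 18.4% higher. The vesicular zinc transporter Slc30a3 (-3.65 ± 0.10), the synaptic pentraxin Nptx1 (-3.27 ± 0.16) and Olfm1 (-2.66 ± 0.09) were far lower. Nrgn, a calmodulin-binding protein often used to mark these neurons, had levels of 12.57, 12.67 and 12.74 in striatum, 12.84, 12.95 and 13.05 in cortex and 12.46, 12.58 and 12.62 in hippocampus, and was slightly lower than in cortex (-0.28 ± 0.03) and slightly higher than in hippocampus (0.11 ± 0.03). Camk2a was lower (-0.92 ± 0.21) with wide overlap of the arrays, and lost its call without the dosing arm as a covariate. The higher members were the kinase Camk4 (0.20 ± 0.07 from cortex, 1.17 ± 0.07 from hippocampus) and the inward rectifier Kcnj4 (0.48 ± 0.04 and 1.05 ± 0.04), both of which medium spiny neurons are known to express. The Camk4 call was lost within either dosing arm alone and with array spread as a covariate.

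**Figure D4:**
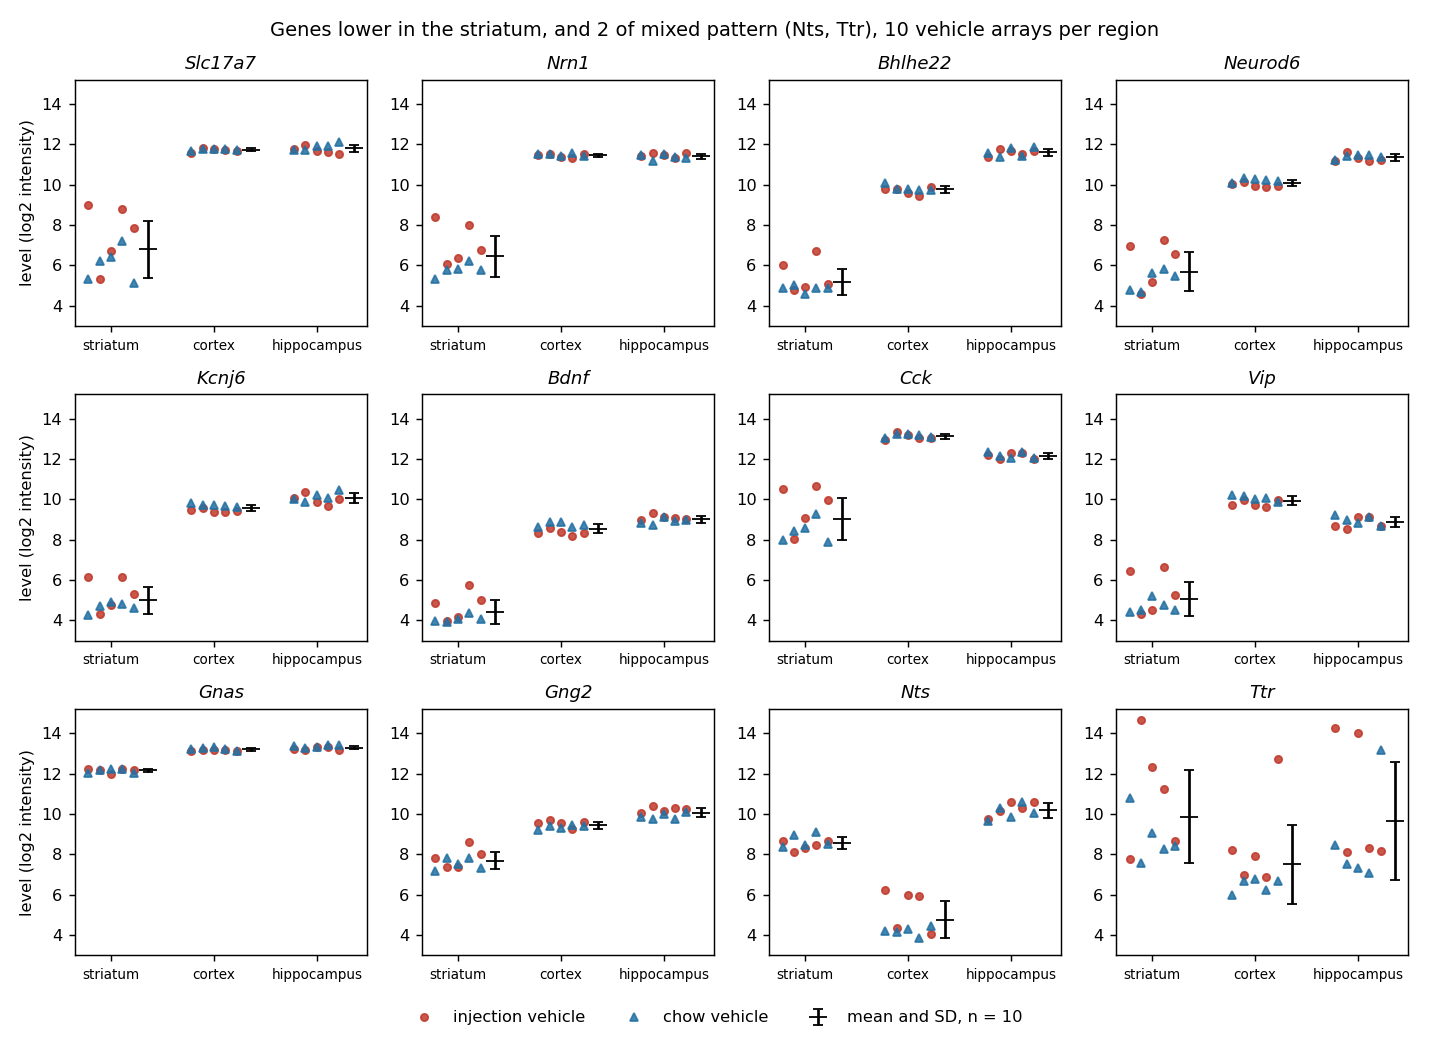
Panels as in the plot of genes higher in the striatum, for 10 genes lower in striatum than in both other regions and for Nts and Ttr. In the 10 lower genes all striatal points lie below the others, with injection vehicle striata 1 and 4 the highest for Slc17a7, Nrn1 and Cck. In Ttr at least 1 array of each region stands far above most others.

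Bdnf, a growth factor that cortical neurons are known to carry to the striatum along their axons, had levels of 3.94, 4.14 and 5.77 in striatum, 8.17, 8.59 and 8.89 in cortex and 8.72, 8.99 and 9.33 in hippocampus. In the striatum it lay near the dim end of the intensity scale, and it differed by -4.13 ± 0.16 and -4.59 ± 0.16. C1ql3, a secreted synaptic organiser, differed by -4.83 ± 0.24 from cortex and -4.56 ± 0.24 from hippocampus, although 1 further probe set was in neither class. The secreted protein Tafa1 (-4.69 ± 0.09), the tyrosine phosphatase Ptpn3 (-4.29 ± 0.14), the alpha-1D adrenoceptor Adra1d (-3.71 ± 0.10), the matricellular protein Ccn3 (-3.83 ± 0.20) and the transporter relative Mfsd4a (-3.75 ± 0.13) completed the 15 lower genes with the largest differences. Among the 15 higher genes the actin-binding protein Nexn (4.76 ± 0.09), the matrix protein Coch (4.30 ± 0.28) and the membrane protein Syndig1l (4.08 ± 0.09) had no place in a list. The smaller of the differences was 3.81 for Penk, the last of the 15, and 3.70 for Asic4, the next. It was 3.17 for Nptx1 and 3.13 for Cck on the lower side.

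Peptide precursors were found on both sides, as were genes in general (18.4% higher and 18.1% lower). Of 21 measured precursors 8 were higher and 7 lower, and in the drug arrays 5 were higher and 7 lower. Besides Penk, Tac1 and Pdyn, the precursors Trh (1.51 ± 0.10) and Cartpt (1.47 ± 0.27) were higher, Cartpt with overlap of the arrays and not among the chow vehicle arrays alone. Cck, the cholecystokinin precursor, had levels of 7.89, 8.81 and 10.65 in striatum, 12.94, 13.12 and 13.32 in cortex and 11.98, 12.17 and 12.35 in hippocampus and differed by -4.09 ± 0.24 and -3.13 ± 0.24. Vip, a peptide of cortical interneurons, had levels of 4.30, 4.64 and 6.63 in striatum, 9.63, 9.95 and 10.23 in cortex and 8.55, 8.90 and 9.23 in hippocampus and differed by -4.88 ± 0.22 and -3.84 ± 0.22. Grp (-2.73 ± 0.12), Adcyap1, the precursor of PACAP (-2.37 ± 0.08), Crh (-1.45 ± 0.09) and Pnoc (-1.30 ± 0.10) were lower as well. Nts, the neurotensin precursor, had levels of 8.12, 8.50 and 9.10 in striatum, 3.86, 4.32 and 6.22 in cortex and 9.63, 10.20 and 10.61 in hippocampus. The striatum was intermediate with no overlap, above cortex by 3.82 ± 0.23 and below hippocampus by a factor of 3.05.

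Of 5 measured genes of GABA synthesis and transport 4 were higher and 1 lower, where 18.4% and 18.1% of all genes were. Slc32a1, the vesicular GABA transporter, had levels of 10.01, 10.23 and 10.29 in striatum, 7.86, 8.21 and 8.37 in cortex and 8.09, 8.23 and 8.57 in hippocampus, and was higher by 2.01 ± 0.06 and 1.93 ± 0.06. The enzymes that make GABA, Gad1 (1.10 ± 0.04) and Gad2 (1.57 ± 0.08), and Abat, which breaks it down (0.82 ± 0.05), were higher. The transporter Slc6a11 was lower (-0.38 ± 0.10). In the drug arrays 4 genes of this list were higher and 0 lower. The Slc6a11 call was also lost among injection vehicle arrays alone.

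Among interneurons, 4 of the 6 measured cholinergic genes were higher. Chat, which makes acetylcholine, had levels of 6.58, 6.95 and 7.37 in striatum, 4.22, 4.54 and 4.83 in cortex and 4.12, 4.43 and 4.58 in hippocampus. The striatal arrays were apart from the others by over 1 log2 unit, with differences of 2.43 ± 0.08 and 2.57 ± 0.08. The choline transporter Slc5a7 (3.53 ± 0.13) and the vesicular transporter Slc18a3 (1.25 ± 0.07) were higher as well. Of 12 measured genes of GABA interneurons 3 were higher and 6 lower, where 18.4% and 18.1% of all genes were. Pvalb, of fast-spiking cells, was lower (-1.74 ± 0.12 from cortex, -1.40 ± 0.12 from hippocampus), Sst was lower than in cortex (-0.57 ± 0.07) and not apart from hippocampus (-0.09 ± 0.07, adjusted p = 0.329), and Npy was higher than in both (0.17 ± 0.06 and 0.80 ± 0.06) in the vehicle arrays and in neither class in the drug arrays.

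Genes of myelin were higher by a modest amount. Of 17 measured genes of the oligodendrocyte and myelin list 16 were higher, with a median of 0.75, where 18.4% of all genes were higher. Their mean level was 10.24, 10.45 and 11.08 in striatum, 8.98, 9.56 and 10.05 in cortex and 9.80, 10.08 and 10.41 in hippocampus, so striatum and hippocampus overlapped. Ugt8, which makes the lipid galactosylceramide, differed by 1.62 ± 0.17 and 0.78 ± 0.17, Mag, an adhesion protein of myelin, by 1.22 ± 0.14 and 0.63 ± 0.14, and Mbp, its basic protein, by 0.40 ± 0.05 and 0.18 ± 0.05. Among injection vehicle arrays alone 1 of the 16 calls remained, at a median of 0.65, and among chow vehicle arrays alone 16 remained, at a median of 0.85. Of the 8 measured ependymal genes 7 were higher (median 0.90), led by the cilium genes Mlf1 (1.82 ± 0.19) and Dynlrb2 (1.65 ± 0.16), and 2 of these calls remained among injection vehicle arrays alone, at a median of 0.83, against 0.96 among chow vehicle arrays alone. Ependymal cells line the ventricles, and whether ventricle wall was part of the samples was not tested.

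Other cell types differed less. Their counts stand beside 18.4% of all genes higher and 18.1% lower. Of 15 astrocyte genes 1 was higher and 5 were lower, chiefly the connexins Gjb6 (-0.89 ± 0.07) and Gjb2 (-0.72 ± 0.15). Of these 5 calls 3 remained among injection vehicle arrays alone and 3 with array spread as a covariate, and in the drug arrays 2 astrocyte genes were higher and 2, both connexins, were lower. Of 5 genes of oligodendrocyte precursors 1 was higher, Sox10, which is also in the oligodendrocyte and myelin list. Its call was lost among injection vehicle arrays alone. Of 15 microglial genes 1 was higher, and of 16 genes of vessels 0 were in either class in limma (1 at an unadjusted p under 0.05). Of 12 meningeal genes 4 were lower, and 1 of these calls remained without the 5 choroid plexus-high arrays. Ttr, the transthyretin gene that marks the choroid plexus, had levels of 7.58, 8.84 and 14.66 in striatum, 5.98, 6.81 and 12.74 in cortex and 7.07, 8.24 and 14.26 in hippocampus, spread widely in every region, and 0 of 12 choroid plexus genes were in either class in limma (1 at an unadjusted p under 0.05). Of 13 genes of thalamus, septum and pallidum 5 were lower, with Slc17a6, the thalamic glutamate transporter, first (-2.11 ± 0.13), and 1 was higher, Nkx2-1, a factor of pallidum and striatal interneurons (0.61 ± 0.05).

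**Figure D5:**
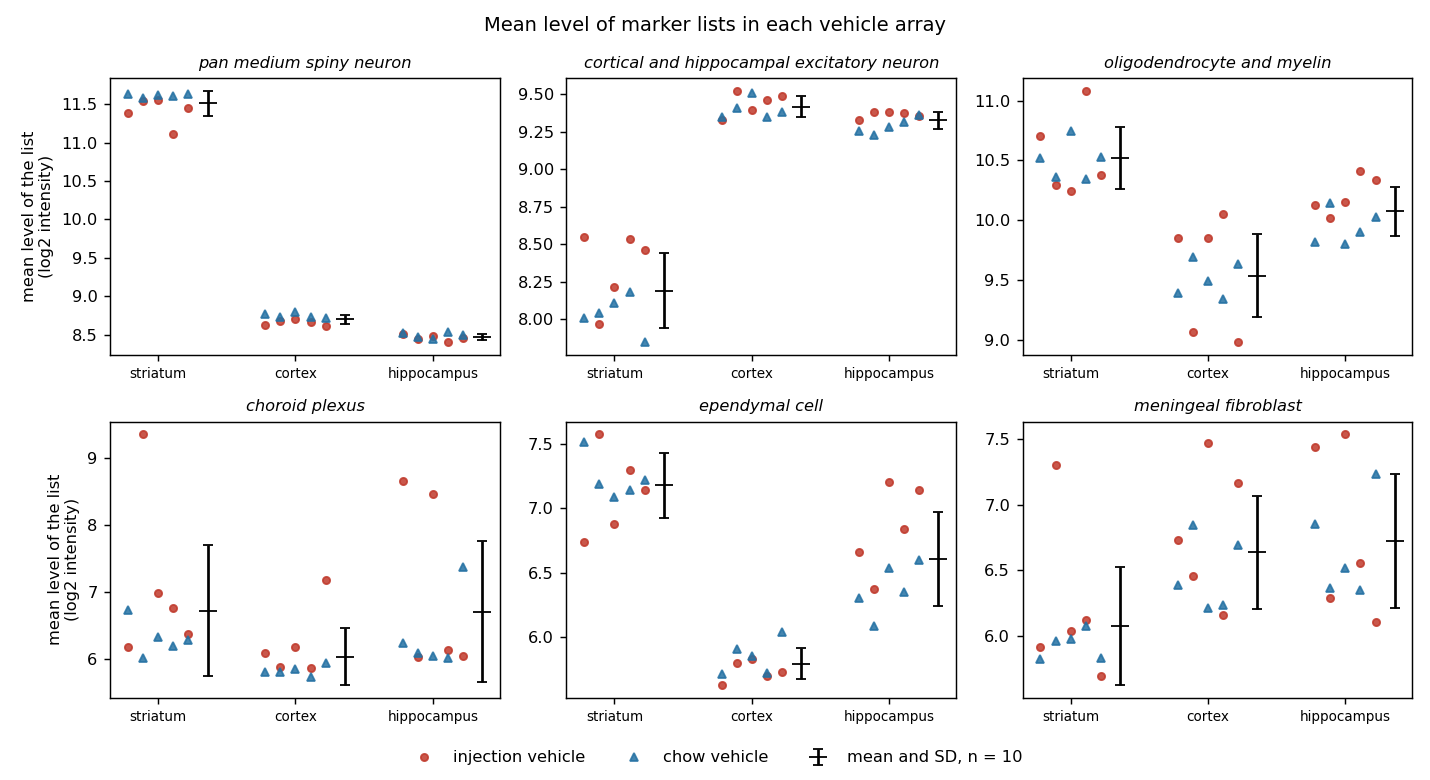
Each point is the mean level of a marker list in 1 vehicle array (y axis, log2 intensity), by region on the x axis, with circles for injection vehicle, triangles for chow vehicle and the mean and SD of 10 arrays. The y axes differ in range between panels. Medium spiny neuron means of striatum do not overlap with the other regions. In choroid plexus genes injection vehicle striatum 2, injection vehicle cortex 5, injection vehicle hippocampi 1 and 3 and chow vehicle hippocampus 5 stand out.

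The same comparison was made in the 30 drug arrays, which came from other animals. There 2568 genes (18.1%) were higher and 2141 (15.1%) were lower in the striatum than in both other regions. Of the 2619 genes higher in vehicle striatum 1968 (75.1%) were higher in the drug arrays, and 53 had the opposite sign against the mean of the other regions. Of the 2568 lower genes 1929 (75.1%) were lower there, and 16 had the opposite sign. Of those that differed by 1 log2 unit or more all 232 higher genes and 288 of 289 lower genes were called again. The difference from the mean of the other regions was 6.20 ± 0.08 in drug arrays and 6.24 ± 0.06 in vehicle arrays for Adora2a, 5.21 ± 0.10 and 5.27 ± 0.12 for Drd1, 3.94 ± 0.08 and 4.12 ± 0.07 for Rarb and -5.24 ± 0.28 and -4.96 ± 0.28 for Slc17a7. Choroid plexus genes differed more, with 0 of 12 higher in vehicle and 4 in drug arrays (medians of 1.33 in drug and 0.25 in vehicle arrays).

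Few striatal differences were called different between the dosing arms after adjustment of p. At an unadjusted p under 0.05 in limma, 3110 of 31042 probe sets differed, more than that threshold gives by chance. A small number of calls therefore does not show that the arms were alike. In limma 66 probe sets of 31042 (0.213%) had a striatal difference that was not the same after injection vehicle as after chow vehicle. Counted by 1 probe set per gene, it was 19 of 14217 genes (0.134%). The number was 146 with the animal as a block, and 34 without chow vehicle striatum 2 or without chow vehicle striatum 5. The lowest adjusted p was that of Kif1a, a motor protein of axons, whose difference from the mean of the other regions was 0.11 in the injection arm and -1.03 in the chow arm (adjusted p = 0.00645), and of its 2 other probe sets 1 was lower and 1 in neither class. Other genes called different between the arms were Ireb2, a sensor of iron, with -0.37 in the injection arm and 0.21 in the chow arm, and the adhesion protein Lsamp, with -0.21 in the injection arm and -0.71 in the chow arm. The general medium spiny neuron list had a median of 3.12 in the injection arm and 3.21 in the chow arm.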

How the data were processed

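RNA of microdissected rat brain regions was hybridised to 1-colour Affymetrix arrays. The deposited values were intensities on a linear scale, made by the authors with RMA (R 2.7.2, per the submitters' processing notes), a method that corrects for background, equalises arrays and summarises the probes of a probe set. Further steps are not given in the sources used here. Equalising arrays can shift dim and bright probe sets against each other. Median intensities were 94.6 to 99.2 in striatal arrays, 95.2 to 101 in cortical and 93.5 to 100 in hippocampal vehicle arrays, and the number of arrays limits the precision. The log2 of the deposited intensity was taken with no pseudocount. Control probe sets (57 of 31099) were left out. Of 31042 probe sets 20826 carried 1 gene symbol in the platform annotation (14217 genes), 436 carried several and 9780 were unnamed here.

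The 30 vehicle arrays were fitted with limma 3.58.1 in R 4.3.3 (lmFit, eBayes with an intensity trend, data.table, version 1.17.8, for reading), with region and dosing arm as terms and no block. Tests were two-sided and p was adjusted over all 31042 probe sets (Benjamini-Hochberg). Named genes were the 15 higher and 15 lower genes with the largest smaller difference, members of 33 lists, and genes that differed between arms or in sign in the drug arrays. Of the listed genes 59 had no probe set with 1 symbol and were not analysed here. The compared regions, the lists and the tests were chosen with earlier results of these data known. Animal numbers in the sample descriptions pair the regions, though only in part for the hippocampus of the chow arm. Deviations of 1 animal's arrays from their group means correlated above 0.1 in 12 of 15 pairs of the injection arm (median r = 0.154) and in 7 of 11 of the chow arm (median r = 0.202), and the animal was a random block in an alternative. Other alternatives were another normalization, filter, variance model, array spread as a covariate, averaged probe sets, 1 arm only and each array left out. The fit was tested on simulated data. The simulated arrays held no shared effect of the animal, so the p-values for paired regions were not tested by it.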

Additional observations from a re-analysis of the deposited data

Results flagged for a closer look

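An array was looked at again where its gap to the nearest array of its group of 5 took up most of the group's range, which chance gives in about 1 in 20 groups. This was so in 14 of 210 groups. In the striatum it held for Foxp2 in chow vehicle array 4 (9.87, against 9.62 to 9.65 in the others), Gnas in injection vehicle array 3 (11.99, against 12.17 to 12.22), Htr4 in chow vehicle array 1 (6.51, against 7.22 to 7.51), and for the means of choroid plexus genes (9.35, against 6.18 to 6.99) and meningeal genes (7.30, against 5.70 to 6.12) in injection vehicle array 2. In the cortex it held for Drd1 (5.68) and Bhlhe22 (10.07) in chow vehicle array 1, Ppp1r1b in injection vehicle array 4 (9.12), Rarb (6.63), Ttr (12.74) and the choroid plexus mean (7.18) in injection vehicle array 5, and Dach1 in injection vehicle array 3 (4.76). In the hippocampus it held for Ttr (13.14) and the choroid plexus mean (7.37) in chow vehicle array 5.

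The striatal difference was not the same after injection vehicle as after chow vehicle in a test of that difference itself for 8 of the named genes. Some of them were named because of their low adjusted p in this same test, so the count of 8 is no evidence of its own. Over all genes it was 19 of 14217 (0.134%). Injection minus chow was 0.54 for Mgll, which breaks down an endocannabinoid, -0.52 for Gabra4, -0.61 for the glutamate receptor Grm7, 1.14 for Kif1a, -0.58 for Ireb2, 0.50 for Lsamp, 0.44 for Shroom3 and -0.34 for Taf1.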

How the results depend on the processing

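The counts of higher and lower genes stayed within 1.5 times of 2619 and 2568 under all alternatives run but injection vehicle arrays alone, which gave 1647 higher genes (2166 with chow vehicle arrays alone, also 5 per region), and a required difference of 1 log2 unit or more in both comparisons, which gave 232 higher and 289 lower genes. Leaving out each array in turn gave 2509 to 2652 higher genes, 2485 to 2611 lower genes and 8100 to 8530 genes against the mean of the other regions. With the animal as a replicate block these were 2678, 2605 and 8625. With array spread as a covariate 2423 genes were higher and 1853 lower. Of the 2619 higher and 2568 lower genes, 2038 and 1806 were called again in that fit. The spread, the interquartile range of log2 levels, was 3.37 to 3.53 in striatal, 3.52 to 3.61 in cortical and 3.43 to 3.64 in hippocampal vehicle arrays. The number of probe sets whose striatal difference differed between arms was 66, and 146 with the replicate block. With each array left out it ran between 34, without chow vehicle striatum 2 or 5, and 135, without injection vehicle cortex 4, and it was 113 without chow vehicle cortex 4. The cause was not tested. Genes of the same class in vehicle and drug arrays numbered 3824 to 3961 with each drug array left out (3995 with the replicate block), against 3897 in all. Over named genes and settings 11817 differences kept their direction and call, 399 lost the call and 1 reversed, that of Gtsf1l (-0.0058 with array spread as a covariate, 0.15 without). Alternatives without arrays high in choroid plexus or excitatory neuron genes, without the array unlike its region, and all those for the difference between arms and for the drug arrays, were chosen after seeing the data. Dim probe sets and 5 arrays per arm and region set the limit of what could be seen.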

Other observations

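Some genes known from striated muscle were among those higher in the striatum. They were in no list, apart from Actn2, and were chosen after their values were seen. Tnni3, a troponin subunit of the heart, averaged 8.30 in striatum, 5.18 in cortex and 5.16 in hippocampus, a difference of 3.13 ± 0.08 from the mean of the other regions, and of 3.01 in the drug arrays. Myh7, a myosin heavy chain of heart and slow muscle, averaged 7.91 in striatum, 5.18 in cortex and 5.51 in hippocampus (2.57 ± 0.08, and 2.76 in the drug arrays). Synpo2, an actin-binding protein of the Z-disc, differed by 2.92 ± 0.15 and Actn2, an alpha-actinin of the Z-disc and of spines, by 2.63 ± 0.09, beside Nexn (4.76 ± 0.09), which also binds actin. All were higher than in both regions in vehicle and in drug arrays.

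The following 3 membrane peptidases were also chosen after their values were seen, from no list. Mme, the enzyme neprilysin that cleaves enkephalin, averaged 6.77 in striatum, 4.16 in cortex and 4.18 in hippocampus (2.60 ± 0.06), Ecel1, a relative of it, differed by 2.84 ± 0.07, and Ace, which converts angiotensin, averaged 8.52 in striatum, 5.42 in cortex and 6.04 in hippocampus (2.79 ± 0.26). On the lower side, the receptors Sstr1 for somatostatin (-3.31 ± 0.15) and Gabbr2 for GABA (-2.46 ± 0.07), the pentraxin receptor Nptxr (-3.38 ± 0.12), the chemokine Cxcl12 (-2.57 ± 0.06) and the guidance molecules Epha5 (-2.26 ± 0.08) and Sema3c (-2.18 ± 0.08) were lower than in both regions.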
